A study of Mus musculus with 9 samples.

Results

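The ER translocation and early secretory transport module held 53 mouse genes chosen by name for their place in the pathway. The rule used no measured values, but these genes were chosen with earlier results of these data known. They stood among 21936 genes in the tumour cell table and 22060 in the macrophage table, and all 53 were listed in both. They fell into 11 roles, namely the Sec61 channel, the translocon-associated protein complex, the signal recognition particle, its receptor, signal peptidase, the COPII coat, the COPI coat, the p24 cargo receptors, the KDEL receptors, a lectin cargo receptor pair, and a SNARE with a Golgi tether. RNA sequencing covered 9 libraries of C57BL origin, 1 per group. With 1 library per group there was no replicate within any group, and the labels do not say whether the libraries came from separate cultures. Each p-value below therefore does not rest on replicates. It rests on the differences between these single libraries that the fitted terms left over, pooled across genes.

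The tumour cells were Lewis lung carcinoma (LLC) cells, a mouse lung tumour line. Their 5 libraries were stressed GM medium, stressed M medium, unstressed GM medium, unstressed M medium and untreated. Medium had been conditioned for 16 h by bone-marrow-derived macrophages (BMDM) of the 2 kinds that the labels call GM-BMDM and M-BMDM, and LLC cells were kept in it for 24 h. For stressed medium those macrophages had first received tunicamycin for 12 h and were then washed, and for unstressed medium they had received none. The 4 macrophage libraries were GM-BMDM with 4 h of tunicamycin, untreated GM-BMDM, M-BMDM with 4 h of tunicamycin and untreated M-BMDM. The macrophages were thus sequenced after a shorter exposure than the one used to make medium. Tunicamycin blocks N-linked glycosylation and thereby loads the endoplasmic reticulum (ER) with misfolded protein.

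Proteins for the cell surface, for secretion and for the organelles of the secretory route enter the ER through the Sec61 channel, brought there by the signal recognition particle and its receptor. The translocon-associated protein complex assists insertion, and signal peptidase removes the signal sequence. COPII vesicles then carry cargo out of the ER, p24 proteins and lectins act as cargo receptors, and COPI vesicles with KDEL receptors return escaped ER residents. In many cell types ER stress raises transcription of parts of this route together with ER chaperones. Macrophages release cytokines and enzymes along this route.

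Assigned reads totalled 15020068 to 17128471 per LLC library and 37695079 to 42751176 per macrophage library. The module took 0.866% of reads in stressed GM medium and 0.898% in stressed M medium, against 0.802% and 0.801% in unstressed GM and M medium and 0.754% in untreated LLC cells. In macrophages it took 0.672% in GM-BMDM with tunicamycin and 0.643% in untreated GM-BMDM, and 0.667% in M-BMDM with tunicamycin and 0.597% in untreated M-BMDM. Hspa5, the main ER chaperone, stood higher with tunicamycin in both kinds, at 1545 CPM (reads normalised to library size) in GM-BMDM with tunicamycin against 1059 CPM untreated, and at 2291 CPM in M-BMDM with tunicamycin against 1074 CPM untreated. The macrophage markers Adgre1, Ptprc and Itgam had 0 reads in all 5 LLC libraries, while all 6 macrophage markers passed the minimum level in BMDM. In LLC cells 2 of the 6 passed it. Summed over the 6, they reached 4.53 and 5.37 CPM with stressed GM and M medium and 8.23 CPM in untreated cells. With unstressed GM and M medium the sums were 3.55 and 5.16 CPM. Bulk RNA cannot tell fewer cells of a type apart from less RNA per cell.

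All 53 genes reached the minimum of 1 CPM on average in LLC cells, and 52 did in macrophages. The exception was Kdelr3, 1 of the 3 receptors that retrieve ER residents bearing a KDEL signal. It had 9 reads in GM-BMDM with tunicamycin and 13 in untreated GM-BMDM, 1 in M-BMDM with tunicamycin and 2 in untreated M-BMDM. In deposited FPKM, a level per gene length and library size, it stood at 0.018 to 0.219 in macrophages and at 41.4 to 48.0 in LLC cells. Its paralogs Kdelr1 and Kdelr2 were expressed in both, Kdelr1 at 36.1 to 39.9 FPKM in macrophages and 29.2 to 37.4 in LLC cells, and Kdelr2 at 36.3 to 40.0 and 43.2 to 54.8. The 2 tables were normalized separately, so a level in one set beside the other is a description without a test.

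Other paralogs also took different shares in the 2 cell types. Sec11a and Sec11c are alternative catalytic subunits of signal peptidase. By CPM, which takes no account of gene length, Sec11c stood at 76.3 to 114.8 in macrophages, above Sec11a at 50.7 to 73.8. In LLC cells Sec11c stood at 28.1 to 33.5 CPM, below Sec11a at 35.3 to 47.3 CPM. The CPM ranges of these paralogs did not overlap within either cell type. The deposited FPKM of Sec11c used a different gene length in each table, so the order per length was not compared. Sec23a and Sec23b form the inner COPII coat with a Sec24 protein. In LLC cells Sec23a ranged from 37.7 to 39.8 FPKM and Sec23b from 13.4 to 18.6 FPKM, while in macrophages Sec23b, at 14.0 to 18.8 FPKM, lay above Sec23a, at 11.03 to 12.9 FPKM. Of the 4 Sec24 paralogs, which select cargo, Sec24d and Sec24b led in LLC cells at 21.2 to 27.2 and 21.7 to 24.8 FPKM, with overlapping ranges. Sec24c led in macrophages at 18.5 to 22.2 FPKM. The paralogs of Sar1, the GTPase that starts COPII assembly, both stood above 30 FPKM in all 9 libraries, with Sar1a at 31.3 to 40.1 FPKM and Sar1b at 38.7 to 50.2 FPKM.

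Across the module the most abundant RNA per length was Ssr3, the gamma subunit of the translocon-associated protein complex, in all 5 LLC libraries, at 141 to 204 FPKM. In all 4 macrophage libraries it was Tmed2, a p24 cargo receptor, at 190 to 243 FPKM. The module's median lay between 25.5 and 30.0 FPKM in LLC cells and between 21.2 and 25.3 FPKM in macrophages. Srp54a, the GTPase subunit of the signal recognition particle, was the lowest or next to lowest of the 53 in each library. Its reads may be split with the near-identical Srp54b and Srp54c, so its values are uncertain.

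The first comparison asked what medium from tunicamycin-treated macrophages did to LLC cells. The largest rises with stressed medium were those of Srprb, Sec61a1 and Ssr1, which serve translocation into the ER, with log2 fold changes of 0.52, 0.51 and 0.45. An additive model of all 5 LLC libraries, with terms for medium, its tunicamycin and its kind, was tested with edgeR's quasi-likelihood method, with p adjusted over 11191 genes after Benjamini and Hochberg, and called 19 of the 53 genes risen and 0 fallen. Of all genes tested 12.9% rose and 10.9% fell. The module's median log2 fold change was 0.11 with 46 of 53 above 0, against -0.000565 for all genes. DESeq2 called 8 of the 19, namely Srprb, Sec61a1, Ssr1, Spcs3, Mcfd2, Srpr, Ssr2 and Ssr3, and 0 fallen, where it called 4.36% risen and 2.38% fallen of the 7068 genes to which it gave an adjusted p. The other 11 rose by edgeR alone. The fit left 1 residual degree of freedom per gene, the difference between GM and M medium in the response to stressed medium. The fit took its spread from the trend over all genes, which underlies the very small p-values.

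Sec61a1, which encodes the pore of the Sec61 channel (chr6:88503579-88518905, minus strand, GRCm38), had 3055 and 3454 reads with stressed GM and stressed M medium, against 2234 and 2063 with unstressed GM and unstressed M medium and 1934 in untreated cells. In CPM these were 192 and 204 with stressed media, 144 and 133 with unstressed media and 129 in untreated cells. Both stressed libraries lay above the other 3, and no library of one group overlapped the other. Its log2 fold change in the fit was 0.51 ± 0.058 (SE derived from the test statistic), with an adjusted p of 9.93e-17 by edgeR. The other channel subunits moved less: Sec61b and Sec61g, its small subunits, and Sec62 and Sec63, which serve post-translational import, had log2 fold changes of 0.00 to 0.11 and none passed.

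Both subunits of the signal recognition particle receptor rose. Srprb, the membrane-anchored beta subunit (chr9:103188032-103202137, minus strand), stood at 146 and 147 CPM with stressed GM and M medium, against 105 and 98.4 CPM with unstressed GM and M medium and 109.5 CPM in untreated cells. Srpr, the alpha subunit that docks the ribosome complex, had 211 and 209 CPM with stressed media, against 161 and 167 CPM with unstressed media and 144 CPM untreated. In each of the 2 genes the stressed libraries lay above all others. By edgeR the log2 fold change was 0.52 ± 0.060 for Srprb (adjusted p = 5.00e-16) and 0.36 ± 0.057 for Srpr (adjusted p = 1.06e-08). Of the particle itself 1 of 6 subunits rose by edgeR, Srp68 (0.20), which DESeq2 did not call, while Srp9, Srp14, Srp19, Srp54a and Srp72 did not pass, with values of -0.17 to 0.14.

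Of the translocon-associated protein complex 3 of 4 subunits rose. Ssr1, its alpha subunit (chr13:37966605-37994217, minus strand), had 413 and 438 CPM with stressed GM and M medium, against 320 and 305 CPM with unstressed GM and M medium and 266 CPM in untreated cells. Ssr2, the beta subunit, had 230 and 245 CPM with stressed media, against 188 and 192 CPM with unstressed media and 156 CPM untreated. Ssr3 had 805 and 860 CPM with stressed media, against 693 and 678 CPM with unstressed media and 592 CPM untreated. All 3 genes had the same order of groups, with stressed media highest, unstressed media between and untreated cells lowest. Their log2 fold changes for stressed against unstressed medium were 0.45 ± 0.053, 0.32 ± 0.056 and 0.28 ± 0.050. Ssr4, the delta subunit, did not pass, at 86.5 and 83.7 CPM with stressed media against 83.2 and 83.0 CPM with unstressed media.

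Signal peptidase had 3 of 5 subunits that rose by edgeR. Spcs3, an accessory subunit, stood at 234 and 252 CPM with stressed GM and M medium, against 191 and 187 CPM with unstressed GM and M medium and 157 CPM untreated (0.36 ± 0.056). Spcs2, another accessory subunit, rose by 0.28 on the log2 scale and Sec11a by 0.26, neither of them called by DESeq2, while Spcs1 (0.07) and Sec11c (0.10) did not pass. For Spcs3 both stressed libraries lay above the other 3.

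**Figure D1:**
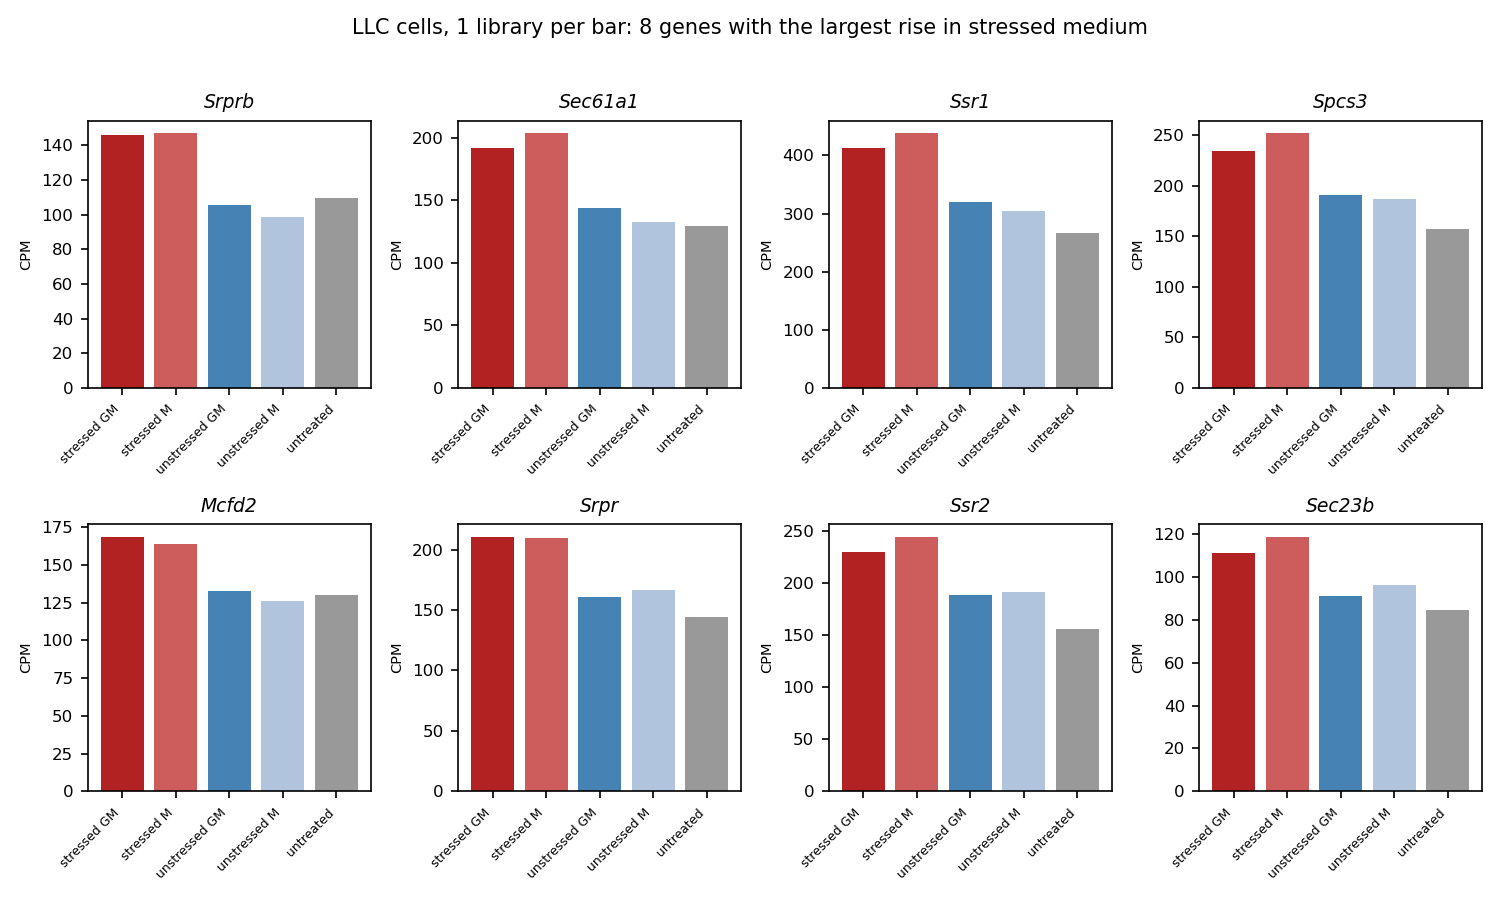
CPM (y axis, from 0) of the 8 module genes with the largest log2 fold change for stressed against unstressed medium in LLC cells, 1 bar per library. In each panel both stressed libraries stand above both unstressed libraries and the untreated library, as for Sec61a1 at 192 and 204 CPM against 144, 133 and 129 CPM.

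Of 12 COPII genes, which carry cargo out of the ER, 3 rose by edgeR, the inner coat gene Sec23b (0.29 ± 0.062) and the cargo adaptors Sec24d (0.26) and Sec24c (0.18). Sec23b had 111 and 119 CPM with stressed GM and M medium, against 91.2 and 96.4 CPM with unstressed GM and M medium and 84.7 CPM untreated. Sec24d had 155 and 174 CPM with stressed media, against 142 and 132 CPM with unstressed media and 157 CPM untreated. With stressed GM medium it thus did not lie above the untreated library. The remaining 9, among them Sec13 and Sec31a of the outer coat, Preb, the exchange factor for Sar1, and Sec16a, which organises ER exit sites, had values from -0.11 to 0.14 and did not pass. The cargo receptor pair Lman1 and Mcfd2, known for carrying coagulation factors, both rose by edgeR. Mcfd2 had 169 and 164 CPM with stressed media, against 133 and 126 CPM with unstressed media and 130 CPM untreated (0.36 ± 0.059), and Lman1 rose by 0.23. Of the p24 cargo receptors Tmed2 (0.26), Tmed9 (0.25) and Tmed7 (0.21) rose by edgeR and Tmed3 and Tmed10 did not pass. Among these COPII, lectin and p24 genes DESeq2 called Mcfd2 alone.

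No subunit of the COPI coat passed, in either direction. The 7 subunits, Copa, Copb1, Copb2, Cope, Copg1, Copz1 and Arcn1, had log2 fold changes between -0.04 and 0.12. Among the receptors that COPI vesicles return with their cargo, Kdelr2 rose by 0.17 by edgeR but was not called by DESeq2, whereas Kdelr1 (-0.02) and Kdelr3 (0.13) did not pass. The Golgi SNARE Bet1 (0.11) and giantin, Golgb1 (-0.02), did not pass either.

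**Figure D2:**
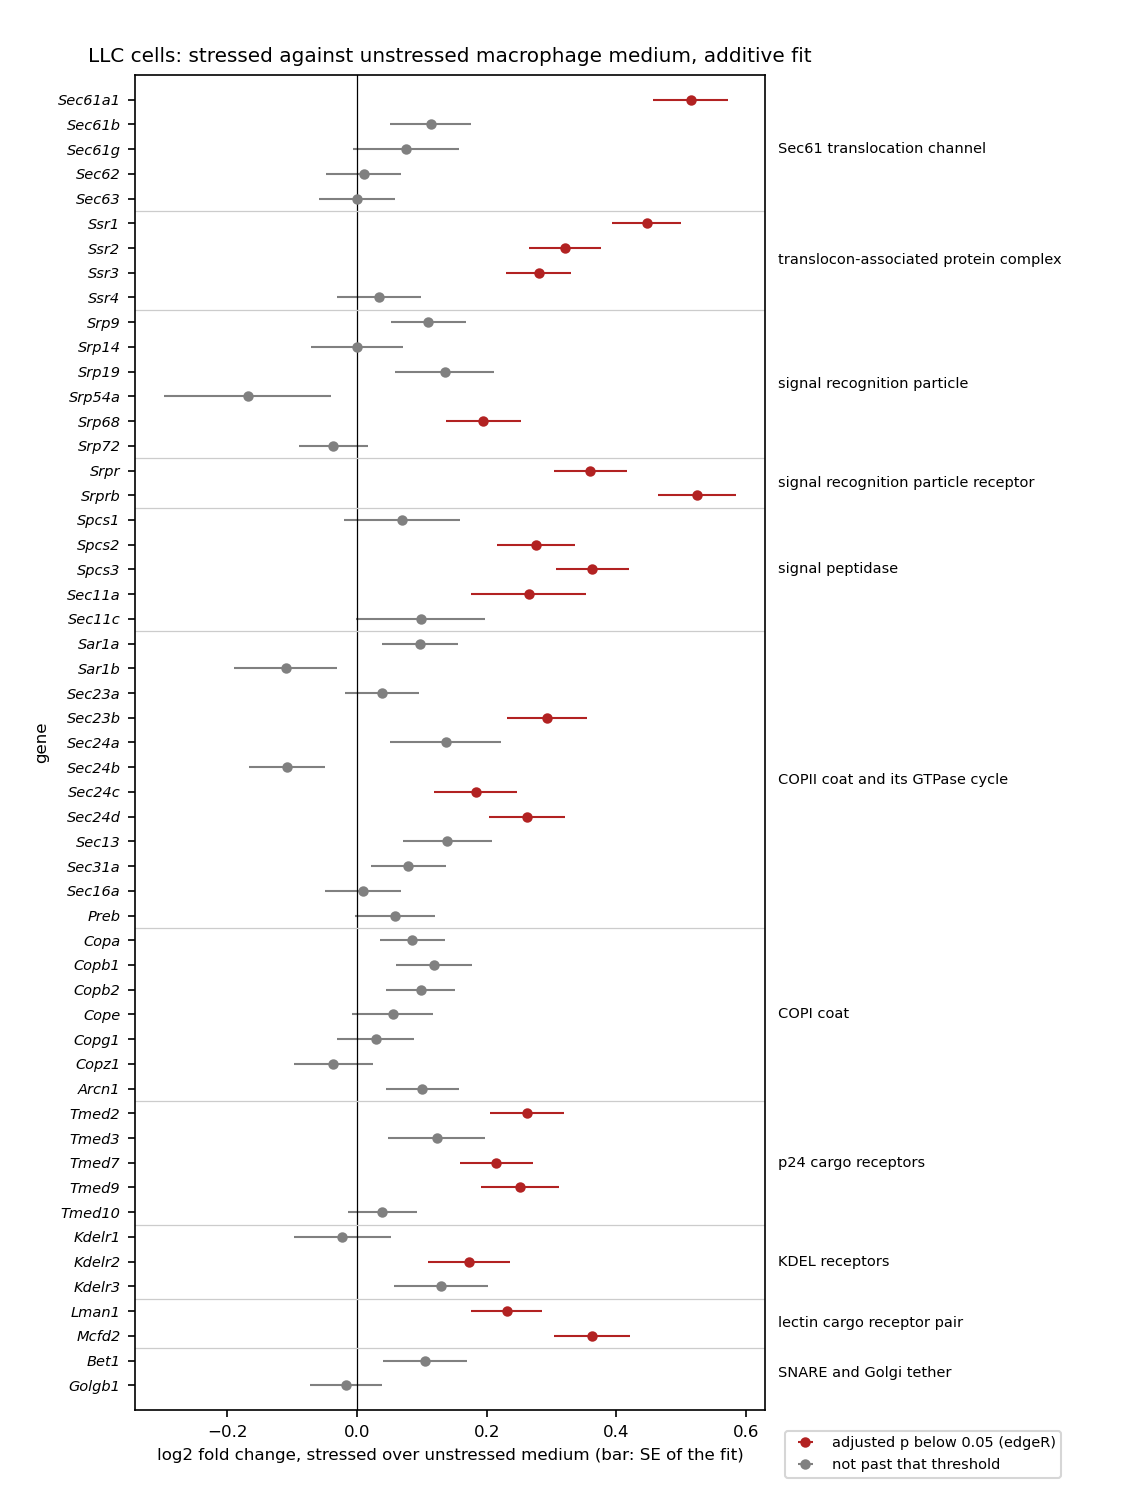
Log2 fold change (x axis) of each of the 53 genes (y axis, by role) for stressed over unstressed medium in the additive fit over 5 LLC libraries, with bars of 1 SE. Red points passed an adjusted p of 0.05 by edgeR: 19 lie right of 0 and 0 left of it, and all 7 COPI genes are grey.

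The 2 kinds of medium could also be set apart, each with its own stressed and unstressed library. With M medium 1 of 53 genes was higher by at least 1.5-fold, Sec61a1, at 1.53-fold (95% interval 1.45 to 1.62), and 0 were lower, where 1.89% and 2.82% of all genes did so. The lower end of its interval lies under 1.5, and with the total count as library size 0 genes passed. For GM medium 0 passed 1.5-fold in either direction, where 1.55% and 2.09% of all genes did. The next largest folds with M medium were Srprb at 1.49 (1.4 to 1.59) and Ssr1 at 1.44 (1.39 to 1.49), and with GM medium Srprb led at 1.39 (1.30 to 1.48), followed by Sec61a1 at 1.33 (1.26 to 1.41). Such intervals cover counting error only, since reads without molecular identifiers are not independent molecules. In 36 of 53 genes both stressed libraries lay above both unstressed ones, as in 28.2% of all genes, and in 4 both lay below, as in 27.4% of all genes. Those 4 were Srp54a, Sar1b, Sec24b and Copz1, and none of them passed the fit. No module gene had counting intervals on opposite sides of 1 with the 2 kinds of medium, as 1.09% of all genes did.

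No module gene differed between GM and M medium in the fit, with 0 risen and 0 fallen by edgeR and by DESeq2 and 1 gene, Sec24c, at an unadjusted p under 0.05. Of all genes 2.23% rose and 2.6% fell by edgeR, and 0.216% and 0.324% of the 5550 genes with an adjusted p by DESeq2. In the pairs of GM against M medium 0 module genes passed 1.5-fold, where 0.911% and 0.554% of all genes were higher and lower between the stressed media, and 0.876% and 1.06% between the unstressed media. Hspa5 stood at 2550 and 2900 CPM with stressed GM and M medium, against 1151 and 1205 CPM with unstressed GM and M medium and 1000 CPM untreated. Its log2 fold change of 1.21 ± 0.048 for stressed against unstressed medium lay above that of every module gene. Fibroblast markers moved the other way beside these results, and 2 of the list of 4 passed the minimum level. Summed over the 4, they reached 1005 and 994.7 CPM with stressed GM and M medium. With unstressed GM and M medium they reached 1746 and 1532 CPM, and in untreated cells 1200 CPM. Most of the summed level was Col3a1. The sum of the 4 epithelium markers, of which 2 passed, also stood lower with stressed than with unstressed medium. It was 452.8 and 458.5 CPM with stressed GM and M medium and 522.6 and 524.1 CPM with unstressed GM and M medium. In untreated cells it was 368.3 CPM. The part of these markers in the result was not tested.

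Promoter sequence was read where RefSeq gave a window. RefSeq windows of 300 bases (250 before to 50 after the start, GRCm38.p6) were given for 41 of the 53 genes and for 11 of the 19 that rose. Each was searched on both strands for the ER stress element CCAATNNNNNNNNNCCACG, the ER stress element II (ATTGG, any 1 base, then CCACG), the unfolded protein response element core TGACGTGG and the core TGATGNAA of the CHOP-ATF4 composite element. The first 3 share the letters CCACG on one or the other strand, and no window of the module held more than 1 of them. Windows are shown for Srprb and Ssr1, which rose with stressed medium, and for Sec24d, which rose by edgeR alone and held a match. The last window shown is that of Copb1, a COPI gene that held a match and did not pass. Capitals mark the unfolded protein response element core or its reverse complement, and letters run 5′ to 3′ along the gene.
Srprb: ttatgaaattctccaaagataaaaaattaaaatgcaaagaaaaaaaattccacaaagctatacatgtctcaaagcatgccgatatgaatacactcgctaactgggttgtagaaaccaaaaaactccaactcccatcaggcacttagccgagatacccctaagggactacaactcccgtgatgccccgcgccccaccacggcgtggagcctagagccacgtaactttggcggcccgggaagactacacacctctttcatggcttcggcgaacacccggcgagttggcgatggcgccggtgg
Ssr1: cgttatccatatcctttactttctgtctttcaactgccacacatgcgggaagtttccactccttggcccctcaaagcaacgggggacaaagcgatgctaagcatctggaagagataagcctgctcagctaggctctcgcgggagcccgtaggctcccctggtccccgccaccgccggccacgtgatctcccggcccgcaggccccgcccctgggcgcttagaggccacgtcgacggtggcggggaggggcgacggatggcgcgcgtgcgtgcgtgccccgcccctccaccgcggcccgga
Sec24d: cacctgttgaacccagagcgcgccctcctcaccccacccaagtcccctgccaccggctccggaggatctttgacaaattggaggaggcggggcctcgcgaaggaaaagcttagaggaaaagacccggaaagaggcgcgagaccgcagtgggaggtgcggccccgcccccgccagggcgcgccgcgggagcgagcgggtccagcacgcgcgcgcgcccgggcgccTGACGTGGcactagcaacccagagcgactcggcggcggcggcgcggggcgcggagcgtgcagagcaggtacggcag
Copb1: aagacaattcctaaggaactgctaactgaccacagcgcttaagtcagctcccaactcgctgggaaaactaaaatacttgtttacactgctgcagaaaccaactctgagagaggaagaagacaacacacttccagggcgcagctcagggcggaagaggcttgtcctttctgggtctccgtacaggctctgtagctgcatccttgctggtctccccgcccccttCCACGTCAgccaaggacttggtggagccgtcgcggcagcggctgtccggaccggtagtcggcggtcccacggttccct

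These windows lie at chr9:103202016-103202315 (minus strand) for Srprb, chr13:37994159-37994458 (minus strand) for Ssr1, chr3:123267246-123267545 (plus strand) for Sec24d and chr7:114254631-114254930 (minus strand) for Copb1. The element core was present in 5 of 41 genes, namely Sec24d, Copb1, Copb2, Sec23a and Kdelr3, and in 0.714% of all 27025 genes with a window. Its first base lay 26 bases before the start in Sec24d and 28 before it in Copb1. Of the 5 genes 1, Sec24d, was among the 11 that rose and had a window. Neither ER stress element was found in any of the 41 genes, against 0.137% and 0.0444% of all genes with a window, and the CHOP-ATF4 core was found in Kdelr1 alone of the 41, against 4.51% of all genes. The letters of Srprb and Ssr1 held none of the 4 motifs in this window.

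The second comparison asked how LLC cells in macrophage medium differed from untreated LLC cells. In the fit, which sets the mean of the 4 media against the single untreated library, 21 of 53 genes rose and 3 fell by edgeR, where 22.8% and 24% of all genes rose and fell. The module's median was 0.11, against -0.00415 for all genes. DESeq2 called 10 risen and 2 fallen, where it called 9.34% risen and 9.18% fallen of the 10757 genes with an adjusted p. This comparison and each pair below share the untreated library, which was assumed to vary like the others.

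Sec24a fell with medium by both tools. It had 43.4 and 42.5 CPM with stressed GM and M medium, 34.9 and 43.4 CPM with unstressed GM and M medium, and 62.2 CPM in untreated cells. All 4 media lay below the untreated library, and unstressed GM medium lay lowest. Its log2 fold change was -0.60 ± 0.090 (adjusted p = 2.36e-10 by edgeR), and with unstressed GM medium it was 1.78-fold lower (1.6 to 1.98) than in untreated cells. It was the 1 gene of 53 past 1.5-fold lower in that pair, where 7.99% of all genes were lower and 5.89% higher. Its paralogs Sec24b, Sec24c and Sec24d did not pass in the fit.

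Golgb1, the Golgi tether giantin, and Kdelr1 were the other 2 that fell. Golgb1 had 224 and 233 CPM with stressed GM and M medium, 223 and 239 CPM with unstressed GM and M medium, and 281 CPM untreated (-0.29 ± 0.060). Kdelr1 had 55.1 and 56.7 CPM with stressed media, 56.4 and 57.3 CPM with unstressed media, and 70.4 CPM untreated (-0.32 ± 0.081), and DESeq2 did not call it. In both genes the 4 media lay close together and below the untreated library, while Kdelr2 rose by 0.25 in the same fit by edgeR, and DESeq2 did not call it.

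The largest rise with medium was that of the signal peptidase subunit Spcs2. It had 131 and 139 CPM with stressed GM and M medium, 111 and 113 CPM with unstressed GM and M medium, and 84.7 CPM untreated, a log2 fold change of 0.54 ± 0.072. Ssr1 (0.46), Spcs3 (0.45), Ssr2 (0.44), Bet1 (0.40), Srpr (0.37), Sec61b (0.36), Sec61a1 (0.36) and Ssr3 (0.35) followed. Bet1 had 88.5 and 91.3 CPM with stressed media, 81.2 and 86.0 CPM with unstressed media, and 65.5 CPM untreated. In Spcs2 and Bet1 all 4 media lay above the untreated library. COPI subunits Copb2, Copg1 and Cope rose by 0.20 to 0.22 by edgeR, and Sec16a by 0.25, and DESeq2 called none of the 4.

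With unstressed medium alone no gene was past 1.5-fold higher than in untreated cells. Unstressed GM medium had 0 higher and 1 lower, Sec24a, where 5.89% and 7.99% of all genes were. Unstressed M medium had 0 in either direction, where 4.46% and 5.7% of all genes were higher and lower. Spcs2 rose most with both, at 1.31-fold (1.21 to 1.41) with GM medium and 1.33-fold (1.24 to 1.43) with M medium. Stressed GM medium had 2 genes past 1.5-fold higher than untreated cells, Ssr1 and Spcs2, and 0 lower, where 6.67% and 9.08% of all genes were. Stressed M medium had 5, namely Ssr1, Spcs2, Spcs3, Sec61a1 and Ssr2, and 0 lower, where 6.21% and 8.94% of all genes were. In 5 of the genes that rose with stressed medium, Srprb, Srp68, Sec11a, Sec24d and Lman1, both unstressed libraries lay below the untreated one.

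The third comparison asked what 4 h of tunicamycin did in the macrophages themselves. No gene of 52 was higher or lower by 1.5-fold in GM-BMDM with tunicamycin, where 0.29% and 1.66% of all genes were. Nor was any in M-BMDM with tunicamycin, where 3.91% and 3.01% were. Of the known stress genes Hspa5, Herpud1 and Ddit3, 2 of 3 were higher by 1.5-fold in GM-BMDM and 3 of 3 in M-BMDM. Hspa5 itself did not reach 1.5-fold in GM-BMDM. The median log2 difference was -0.00399 in GM-BMDM, with a range from -0.41 to 0.30, and 0.09 in M-BMDM, with a range from -0.42 to 0.53. Across all genes the medians were -0.01 and 0.01. In the additive fit over both kinds 0 of 52 genes passed, as did 0% of all genes. At an unadjusted p under 0.05 edgeR held 3 module genes, Srp19 (0.43 ± 0.13), Mcfd2 (0.35 ± 0.13) and Spcs1 (-0.31 ± 0.12), with adjusted p of 0.430 to 0.478, among 1132 of all genes, and DESeq2 called 0 module genes and 52 of all genes, 19 risen and 33 fallen, or 0.172% and 0.299%.

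Srp19, a scaffold subunit of the signal recognition particle, had 28.1 CPM in M-BMDM with tunicamycin against 19.1 CPM untreated, and 29.6 CPM in GM-BMDM with tunicamycin against 23.8 CPM untreated. The folds were 1.47 (1.34 to 1.61) in M-BMDM and 1.24 (1.14 to 1.35) in GM-BMDM. Mcfd2 had 167 CPM in M-BMDM with tunicamycin against 116 CPM untreated, and 155 CPM in GM-BMDM with tunicamycin against 138 CPM untreated. In these 2 genes the treated library lay above the untreated one in both kinds. With the total count as library size both passed 1.5-fold in M-BMDM. Spcs1, an accessory subunit of signal peptidase, had 49.7 CPM in M-BMDM with tunicamycin against 67.1 CPM untreated, and 65.3 CPM in GM-BMDM with tunicamycin against 74.1 CPM untreated.

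Of the 52 genes 7 moved in opposite directions with tunicamycin in the 2 kinds, with counting intervals on opposite sides of 1, as did 8.66% of all 11048 genes. Of the 7, 6 stood lower in GM-BMDM and higher in M-BMDM with tunicamycin than in the untreated library, among them Sec24a, Sec63 and Sec16a. Sec24a had 38.3 CPM in M-BMDM with tunicamycin against 33.0 CPM untreated, and 42.2 CPM in GM-BMDM with tunicamycin against 56.4 CPM untreated. Sec63 had 83.4 CPM in M-BMDM with tunicamycin against 63.5 CPM untreated, and 78.4 CPM in GM-BMDM with tunicamycin against 87.7 CPM untreated. Sec16a had 152 CPM in M-BMDM with tunicamycin against 119 CPM untreated, and 134 CPM in GM-BMDM with tunicamycin against 153 CPM untreated. With single libraries the difference between the kinds was not tested, and the additive fit counted it as error. Markers of other cells moved in the same pairs. In GM-BMDM with tunicamycin 4 of the 5 neutrophil markers that passed the minimum level were lower by at least 1.5-fold (median -0.74 in log2(CPM + 1)), as were 2 of 4 dendritic cell markers (median -0.82). In M-BMDM with tunicamycin 1 of 5 and 1 of 4 were lower, with medians of 0.11 and 0.04. The sums over each whole list moved less in GM-BMDM. Neutrophil markers reached 1611 CPM there with tunicamycin against 1696 CPM untreated, and dendritic cell markers 1081 against 1174 CPM. In M-BMDM these sums were 31.54 against 50.03 CPM and 34.4 against 40.15 CPM. Summed macrophage markers reached 36590 CPM in GM-BMDM with tunicamycin against 38940 CPM untreated, and 31090 CPM in M-BMDM with tunicamycin against 49890 CPM untreated. Of the 6 macrophage markers 0 were lower by 1.5-fold in GM-BMDM (median -0.10) and 1 in M-BMDM (median -0.30). In M-BMDM 0 of the 6 lay above 0. The part of all these markers in the result was not tested. At the low end in M-BMDM after Spcs1 stood the p24 receptor Tmed10, at 128 CPM with tunicamycin against 163 CPM untreated, and Sec61b, at 30.2 CPM with tunicamycin against 37.6 CPM untreated. All 5 p24 receptors and both measured KDEL receptors lay below 0 there, but with the total count as library size 3 of the 5 and both KDEL receptors lay above it.

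**Figure D3:**
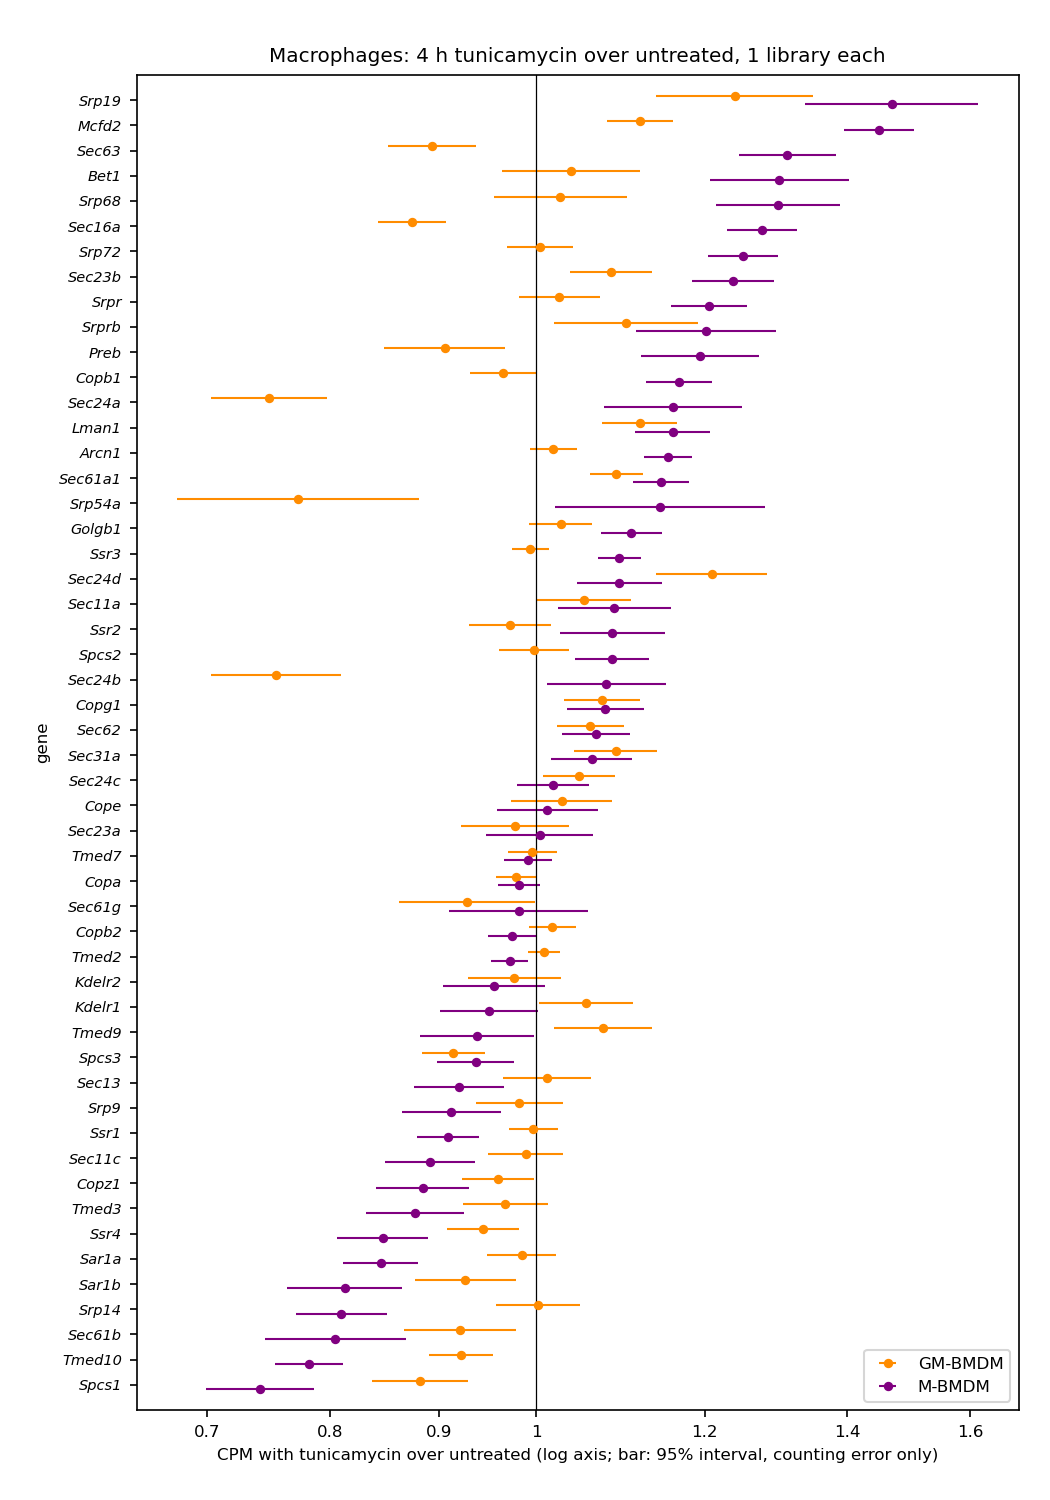
Ratio of CPM with 4 h of tunicamycin over untreated (x axis, log scale) for the 52 genes that passed the minimum level (y axis, ordered by M-BMDM), in GM-BMDM (orange) and M-BMDM (purple), with 95% intervals for counting error. M-BMDM run from Spcs1 at 0.741 to Srp19 at 1.47 and GM-BMDM from Sec24a at 0.749 to Srp19 at 1.24, so that no gene reaches 1.5-fold.

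The fourth comparison set GM-BMDM against M-BMDM. In the additive fit 12 of 52 genes rose and 1 fell by edgeR, as GM-BMDM against M-BMDM, where 26.3% and 24.3% of all 11048 genes rose and fell, so neither share lay above the background. The median was 0.08, against -0.02 for all genes. All 4 subunits of the translocon-associated protein complex rose, as did 3 of 5 signal peptidase subunits, 3 of 5 p24 receptors, 1 of 5 Sec61 channel genes and 1 of 7 COPI genes. DESeq2 called 11 of these 13, without Tmed3 and Tmed9, where it called 23% of all genes risen and 18.7% fallen.

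Ssr2 had 95.1 CPM in GM-BMDM with tunicamycin and 97.9 CPM in untreated GM-BMDM, against 63.4 CPM in M-BMDM with tunicamycin and 58.4 CPM in untreated M-BMDM. Ssr4 had 120 and 127 CPM in GM-BMDM with and without tunicamycin, against 73.9 and 87.3 CPM in M-BMDM with and without it. Both GM libraries lay above both M libraries in each gene. The log2 fold changes were 0.66 ± 0.12 for Ssr2 (adjusted p = 0.00269 by edgeR) and 0.62 ± 0.11 for Ssr4 (adjusted p = 0.00337 by edgeR). Ssr1 rose by 0.59 and Ssr3 by 0.42, and of the signal peptidase subunits Spcs3 rose by 0.55, Sec11c by 0.50 and Sec11a by 0.44.

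Copz1, the zeta subunit of the COPI coat, had 120 and 125 CPM in GM-BMDM with and without tunicamycin, against 72.5 and 82.0 CPM in M-BMDM with and without it (0.67 ± 0.11, adjusted p = 0.00221 by edgeR). The other 6 COPI subunits did not pass. Sec61b, at 49.3 and 53.6 CPM in GM-BMDM against 30.2 and 37.6 CPM in M-BMDM in the same order, rose by 0.61, while the pore gene Sec61a1 did not pass, at 244 and 224 CPM in GM-BMDM against 228 and 199 CPM in M-BMDM. Among p24 receptors Tmed2 (0.38), Tmed9 (0.38) and Tmed3 (0.36) rose by edgeR, with both GM libraries above both M libraries in each.

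Sec24d was the 1 gene that fell in GM-BMDM. It had 58.9 CPM in GM-BMDM with tunicamycin and 48.7 CPM in untreated GM-BMDM, against 95.7 CPM in M-BMDM with tunicamycin and 87.5 CPM in untreated M-BMDM. Both GM libraries lay below both M libraries, and the log2 fold change was -0.77 ± 0.12 (adjusted p = 0.00129 by edgeR). In the untreated pair it was 1.80-fold lower (1.70 to 1.90). Sec24a was 1.71-fold higher (1.59 to 1.83) in untreated GM-BMDM than in untreated M-BMDM, but the tunicamycin libraries differed less, at 42.2 CPM in GM-BMDM and 38.3 CPM in M-BMDM, and the fit did not call it (0.46 ± 0.17, adjusted p = 0.0587 by edgeR).

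**Figure D4:**
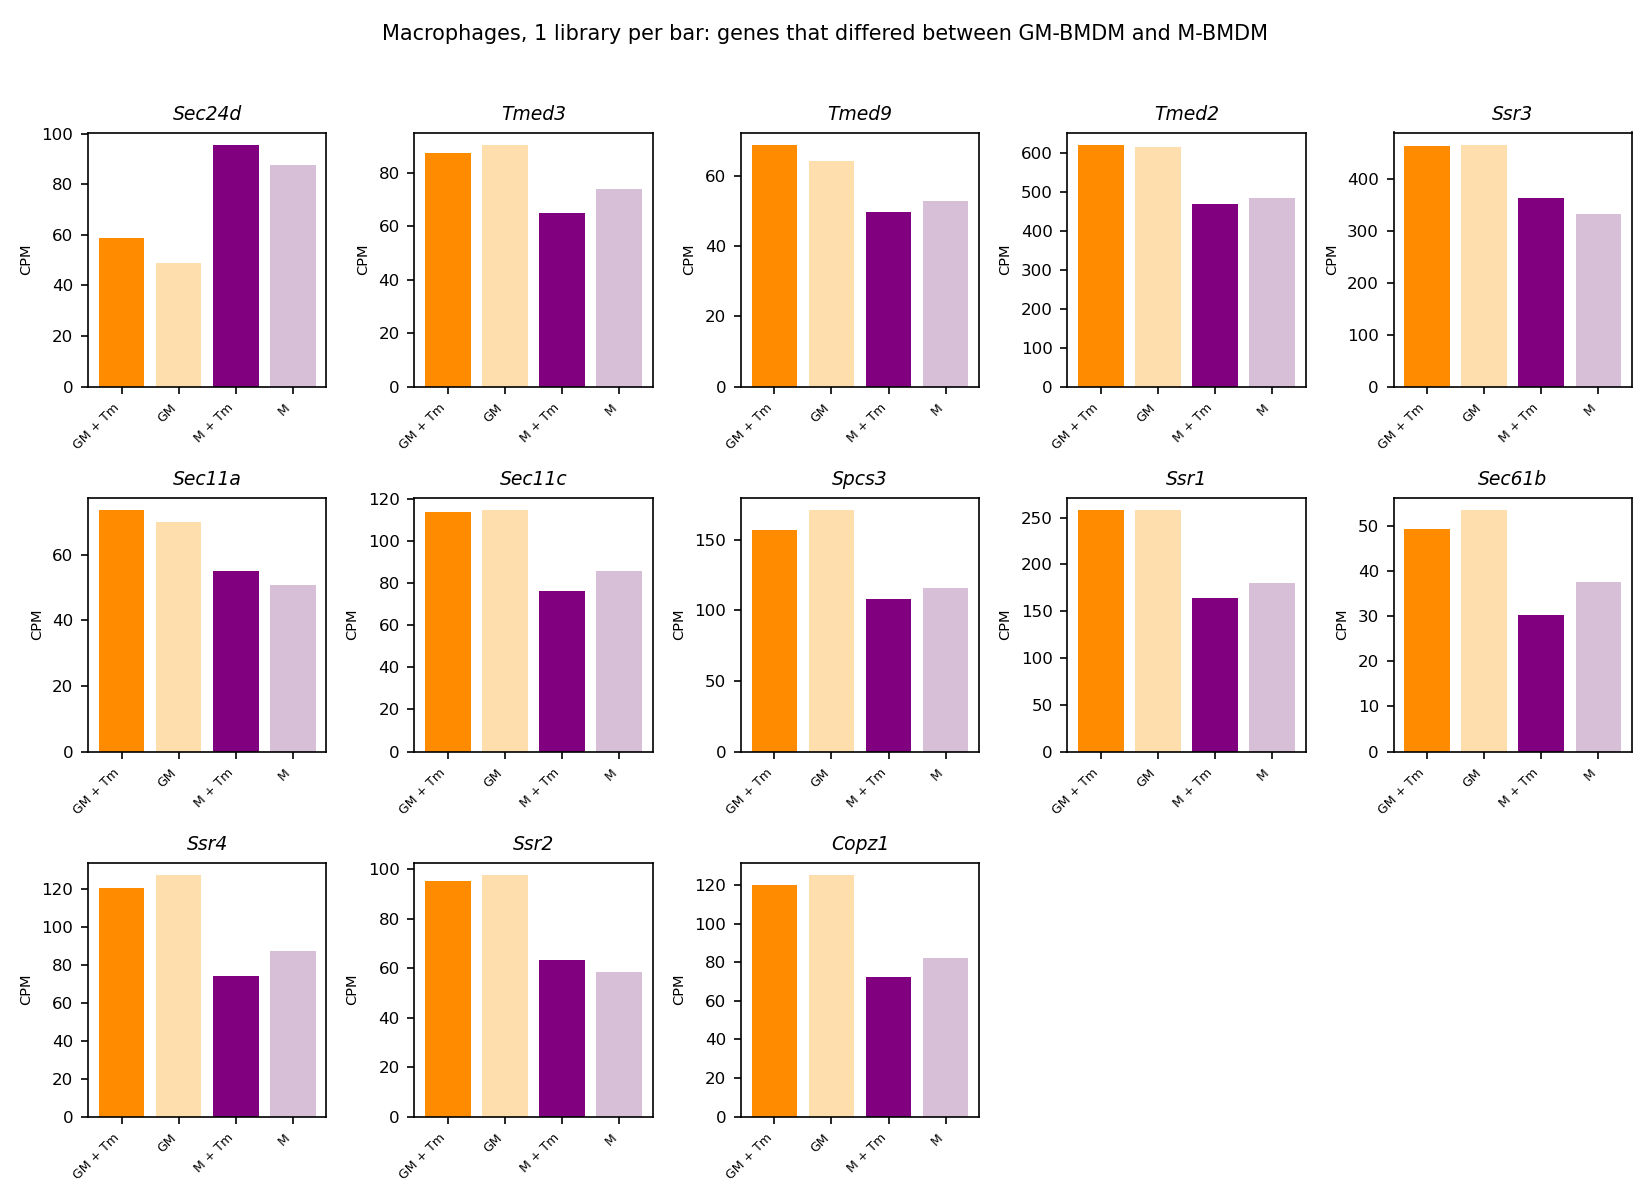
CPM (y axis, from 0) in the 4 macrophage libraries, 1 bar each, of the 13 module genes that passed an adjusted p of 0.05 between GM-BMDM and M-BMDM by edgeR; Tm stands for 4 h of tunicamycin. In Sec24d both GM bars (58.9 and 48.7 CPM) stand below both M bars (95.7 and 87.5 CPM), and in the other 12 panels both GM bars stand above both M bars.

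In the untreated pair 3 genes, Sec24a, Ssr2 and Copz1, passed 1.5-fold higher in GM-BMDM and 1, Sec24d, passed lower, where 19.3% and 14.8% of all genes were higher and lower. With tunicamycin 4 were higher (Copz1, Ssr4, Sec61b and Ssr1) and 2 lower (Sec24d and Srp54a), where 20.1% and 17.3% of all genes were. In 20 of 52 genes both GM libraries lay above both M libraries and in 10 they lay below, as in 37.4% and 38.9% of all genes. Markers of other blood cells moved with the kind. Summed over the list of 9, neutrophil markers reached 1611 and 1696 CPM in GM-BMDM with and without tunicamycin, against 31.5 and 50.03 CPM in M-BMDM with and without it, and 5 of the 9 passed the minimum level. For the 6 markers of mast cells, basophils and eosinophils, of which 4 passed, the sums were 107 and 140 CPM in GM-BMDM and 1.42 and 1.63 CPM in M-BMDM, and for the 5 dendritic cell markers, of which 4 passed, 1081 and 1174 CPM and 34.4 and 40.1 CPM. The sum of the 5 lymphocyte markers went the other way, with 1 past the minimum level and the others under 1 CPM on average. The sums over all 5 were 0.567 and 0.678 CPM in GM-BMDM with and without tunicamycin, against 7.975 and 8.169 CPM in M-BMDM. No marker of these lists was at 0 in all 4 libraries, and the part of these markers in the result was not tested.

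**Figure D5:**
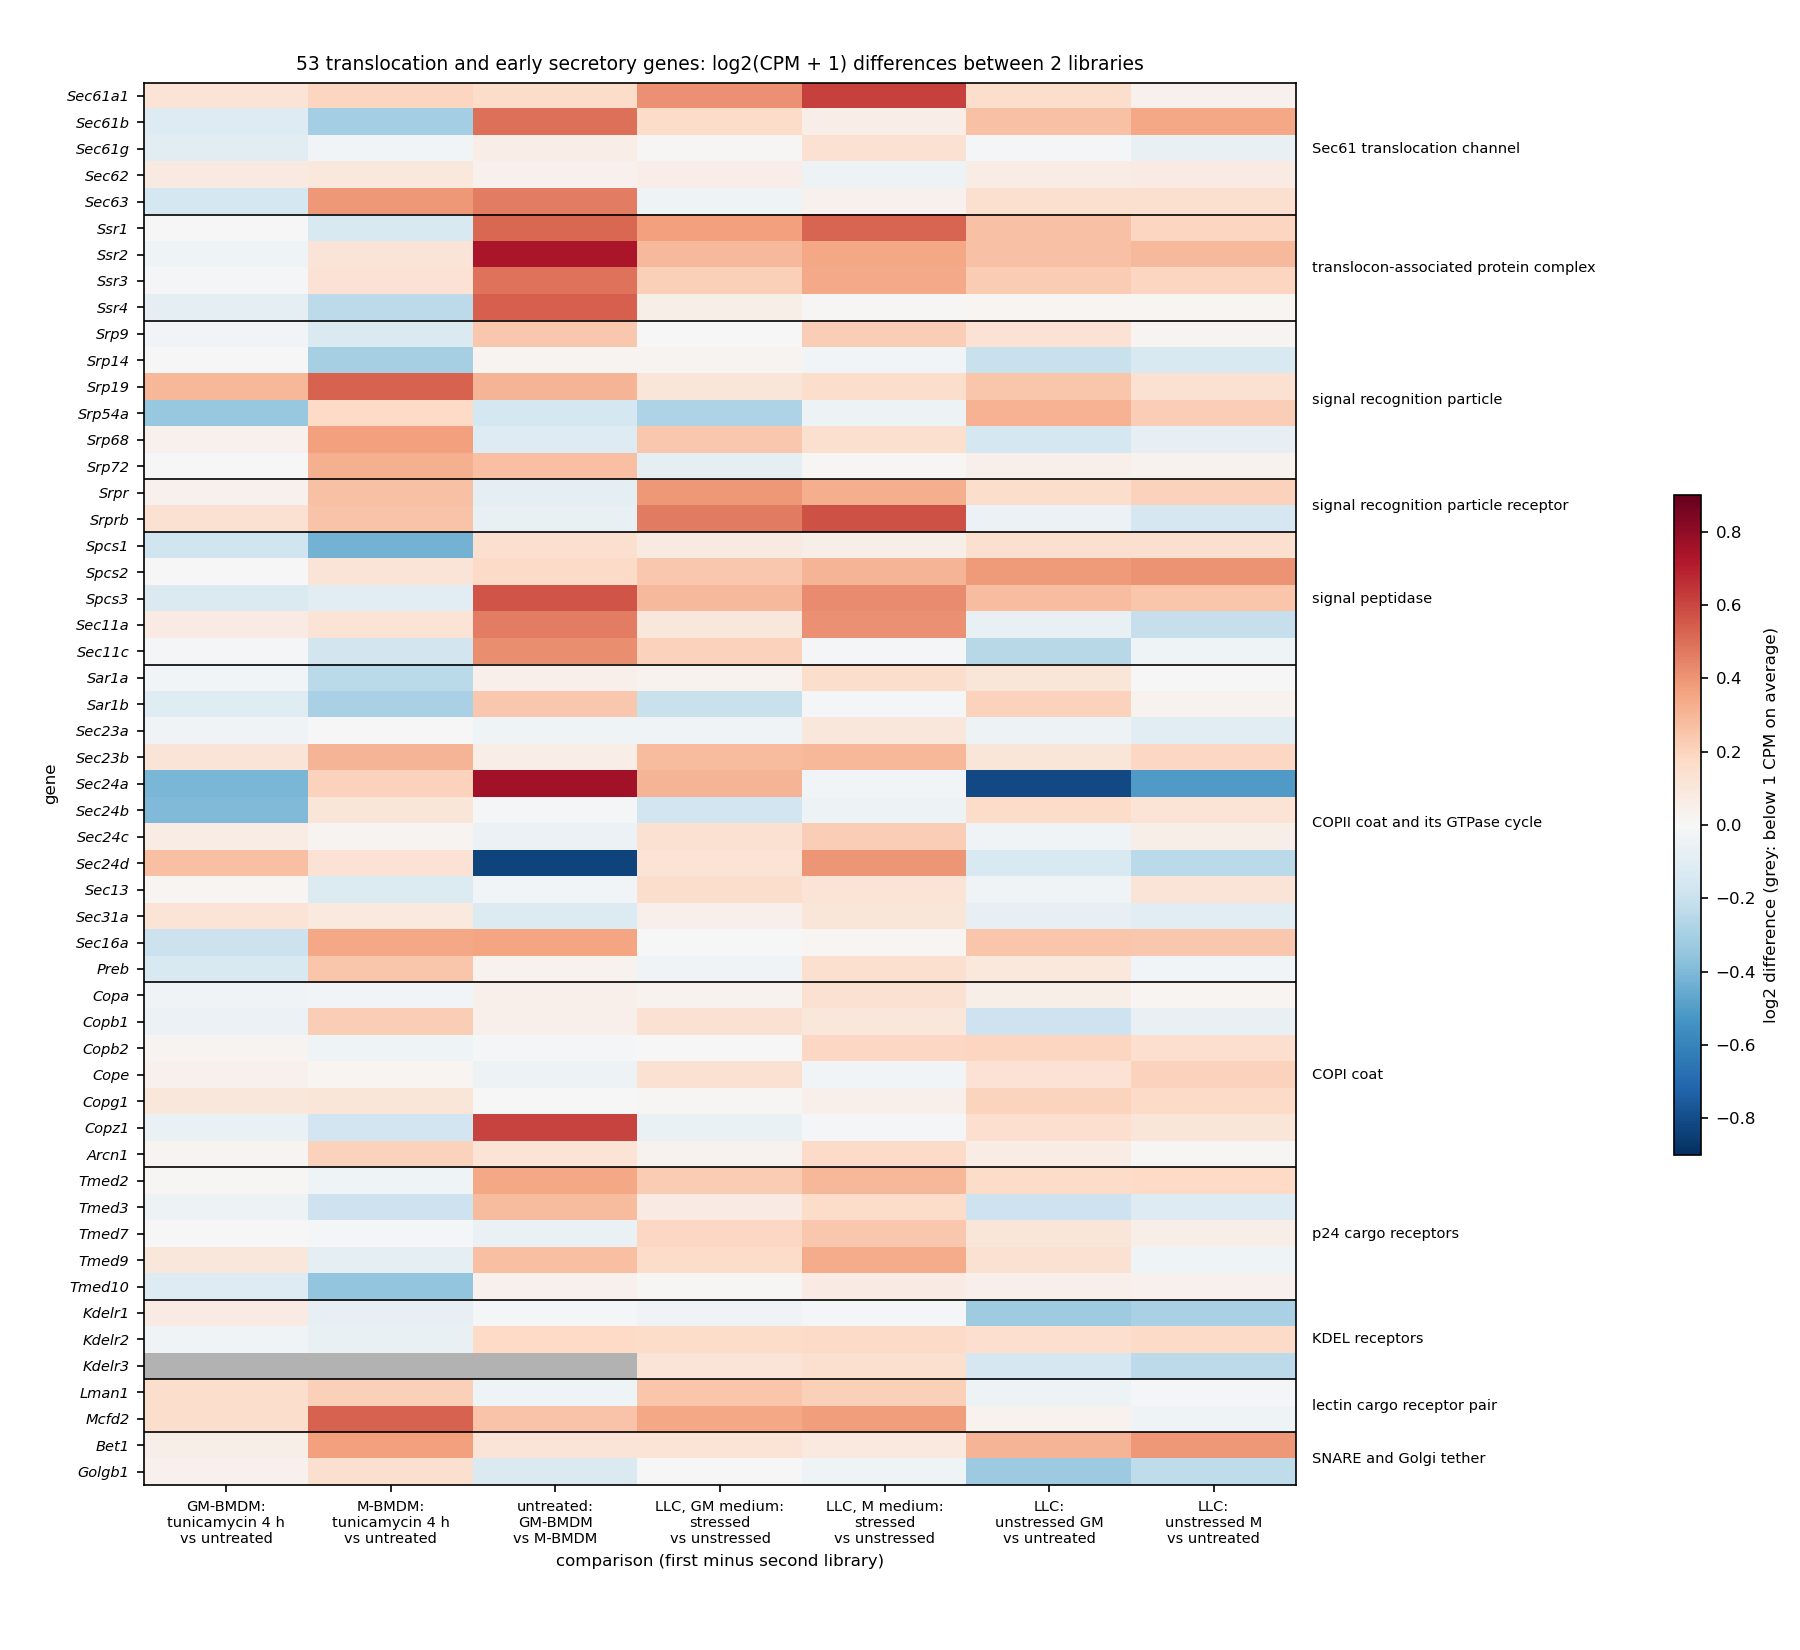
Differences in log2(CPM + 1) between the first and the second library named under each column (7 comparisons), for the 53 genes in rows by role; red is higher in the first library, blue lower, and grey marks Kdelr3 in macrophages, below 1 CPM on average. The darkest red in the stressed medium columns is Sec61a1 with M medium (0.61), and the darkest blues are Sec24d between untreated macrophages (-0.83) and Sec24a with unstressed GM medium (-0.81).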

How the data were processed

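RNA was extracted with Trizol and sequenced, per the labels' protocols. Per the submitters' processing notes the tools were TopHat2 2.1.0, HISAT2 and cutadapt 1.15, without their roles. Which program counted reads, whether by strand, and on which build is not given in the sources used here, so reads of antisense partners cannot be set apart. The authors deposited whole-number counts of reads for each gene in separate LLC and macrophage tables, and FPKM in further columns. Deposited FPKM matched count over length and total count within 4.96e-07 (LLC) and 4.92e-06 (macrophages), with each table's own gene lengths. Of 21894 gene IDs shared with GENCODE M21 (GRCm38), 99.0% had equal coordinates.

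From the deposited counts, CPM was computed with TMM library sizes (edgeR 4.0.16, R 4.3.3) within each table. Pairs of libraries are log2(CPM + 1) differences, called at 1.5-fold and carrying no p-value; folds have exact Clopper-Pearson 95% intervals from the counts. Genes with a mean under 1 CPM were left out, which kept 11191 genes for LLC and 11048 for macrophages. edgeR's quasi-likelihood test used kind + tunicamycin for macrophages and medium + kind of medium + tunicamycin of medium for LLC, each with 1 residual degree of freedom and Benjamini-Hochberg adjustment over all genes at 0.05. The biological coefficient of variation was 4.23% in LLC, with infinite prior degrees of freedom, and 11.5% in macrophages. SE is the absolute log2 fold change over the square root of F. Fits were tested on simulated data. Alternatives were DESeq2 1.42.0, its size factors, total counts, a pseudocount of 5 CPM, no filter and a 2-fold threshold. Promoter windows are RefSeq's.

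Genes are named by role, past 1.5-fold, among the largest differences, as paralogs, or as up to 4 other secretory genes per comparison; Hspa5 served as the check that tunicamycin acted. The members, gene lists and motifs were chosen with earlier results of these data known.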

Additional observations from a re-analysis of the deposited data

Results flagged for a closer look

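In macrophages 7 of 52 module genes moved in opposite directions with tunicamycin in the 2 kinds, with counting intervals on opposite sides of 1, as did 957 of all 11048 genes (8.66%), and the difference between kinds was not tested. As CPM with tunicamycin over untreated, the ratios were 0.893 in GM-BMDM and 1.31 in M-BMDM for Sec63, 0.772 and 1.14 for Srp54a, 0.749 and 1.16 for Sec24a, 0.754 and 1.08 for Sec24b, 0.874 and 1.28 for Sec16a, 0.905 and 1.19 for Preb, and 1.07 and 0.938 for Tmed9, with GM-BMDM given first in each pair. Of these, Sec24a and Sec24b are paralogous cargo adaptors of COPII, and Srp54a may share reads with its near-identical copies. With the total count as library size Tmed9 lay above 1 in M-BMDM as well. No gene of the module moved in opposite directions with stressed medium of the 2 kinds in LLC cells by this measure, where 122 of all 11191 genes (1.09%) did.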

How the results depend on the processing

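No paired analysis was possible because each group held 1 library and the groups shared no replicate numbers, and for the same reason no library could be left out of a group. With DESeq2 in place of edgeR, the module genes that rose in LLC cells numbered 8 with stressed medium (19 by edgeR) and 10 with medium (21 by edgeR). With no filter on low counts, 2 module genes fell between the macrophage kinds, against 1. With the total count as library size, 2 genes were higher in M-BMDM with tunicamycin (0 as reported), 0 were higher with stressed M medium (1 as reported), and 7 lay lower in both stressed libraries than in both unstressed ones (4 as reported), an alternative chosen after seeing the data. At 2-fold the counts were 0 higher and 0 lower between untreated macrophages (3 and 1 as reported), 0 lower with unstressed GM medium (1) and 0 higher with stressed M medium (1). No called value reversed in the alternatives run. Among all genes in M-BMDM with tunicamycin the total count gave 652 higher and 186 lower, against 432 and 332, and the largest shift of the all-gene median was 0.0967. Apart from the construction of each alternative, the cause was not tested. Depth limits Kdelr3 in macrophages, with at most 13 reads.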

Other observations

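Secretory genes outside the module were read from a list of 77, of which 74 were in the tables. With stressed against unstressed medium in LLC cells 16 of the 73 that passed the minimum level rose and 6 fell by edgeR, where 12.9% and 10.9% of all genes did, with a median log2 fold change of 0.05. Tmed5, a p24 protein, had 104.7 and 100.6 CPM with stressed GM and M medium, against 78.9 and 81.2 CPM with unstressed GM and M medium and 69.4 CPM untreated (0.36 ± 0.064), and Copz2, a COPI zeta isoform, had 12.2 and 12.3 CPM, against 18.1 and 16.1 CPM and 16.4 CPM untreated (-0.48 ± 0.14). Emc9 (-0.62 ± 0.35) and Srp54b (0.37 ± 0.20) had larger values and did not pass. With medium against none 18 of 73 rose and 7 fell by edgeR, where 22.8% and 24% of all genes did. The largest changes that passed were those of Sec22a (0.63 ± 0.14), a SNARE-like protein, and Tmed4 (-0.60 ± 0.071). Emc8 rose by 0.47, while Srp54b (-0.43) did not pass.

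Between GM-BMDM and M-BMDM 13 of 72 rose and 9 fell by edgeR, where 26.3% and 24.3% of all genes did. Mmgt1, a subunit of the ER membrane protein complex, had 72.9 and 73.9 CPM in GM-BMDM with and without tunicamycin, against 32.1 and 35.9 CPM in M-BMDM with and without it (1.11 ± 0.12). Tmed1, a p24 protein, had 9.40 and 8.91 CPM in GM-BMDM, against 21.7 and 19.4 CPM in M-BMDM in the same order (-1.16 ± 0.13). Ergic1 rose by 0.91, and Use1 fell by 0.87 on the log2 scale. In M-BMDM with tunicamycin Trappc1 had 18.2 CPM against 40.7 CPM untreated, a larger difference than in any module gene, and in GM-BMDM with tunicamycin it had 41.8 CPM against 55.3 CPM untreated. By edgeR the fit called 0 of the 72 for tunicamycin, where it called 0% of all 11048 genes risen and 0% fallen.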
